A study of Mus musculus with 25 samples.

Results

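The genes described here were Trp53, which encodes the transcription factor p53, its relative Trp73, and 31 genes known as regulators or transcriptional targets of p53. They were chosen by symbol from a list of 33, with no use of their values. All 33 were among the 15315 genes of the long-term RNA-seq table. The short-term table, of 14007 genes, held 32 of them, without Eda2r, a gene on chromosome X.

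p53 is held at a low level in unstressed cells, mainly because its target Mdm2 encodes the ligase that marks the protein for destruction, so its activity is set largely after transcription. DNA damage, oncogene activity or metabolic stress stabilise the protein, which then binds paired copies of a short sequence and raises transcription of genes for cell cycle arrest, repair, metabolic adaptation and apoptosis. Loss of RB frees E2F factors, and E2F activity is known to signal to p53 through the Cdkn2a locus, which makes these targets of interest in tumors that begin with loss of RB.

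The samples were pituitary glands and pituitary tumors of shRb mice, in which the number of reads per gene was measured by RNA-seq. Every mouse carried the reverse tetracycline transactivator at Rosa26 and a tetracycline-driven, GFP-linked shRNA against Rb at Col1a1 (Rosa26-rtTA; Col1a1-shRb5-4), and every mouse had been given doxycycline (dox), which switches the shRNA on. The line rests on a single shRNA in a single embryonic stem cell clone, rtTA at Rosa26 is expressed across tissues, and treatment began in adult animals of mixed sex. In the long-term experiment, 3 females had 6 weeks of dox (6w+dox), 2 females and 2 males had 12 weeks (12w+dox), and 3 females and 2 males had 6 weeks of dox followed by 6 weeks without it, so that RB could return (12w-res). These 12w-res mice match 12w+dox in time since dox was begun and did not pass through 12 weeks of dox, so a difference between the 2 groups is not a change over time. In the short-term experiment all mice had 16 weeks of dox, by the labels. Then 3 males stayed on dox (16w+dox), and tissue was taken from 4 females 1 day, 3 males 3 days and 3 females 5 days after dox was removed (1d-dox, 3d-dox, 5d-dox). No gland without dox was analysed here, so each group is read against another group that had RB knocked down.

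The long-term libraries, made from poly(A) RNA, held 19066053 to 28968476 reads on genes. The short-term libraries, depleted of ribosomal RNA, held 9573101 to 13036900, besides 68.8% to 75.0% of reads on 4 lines that name no gene. Rb1 behaved as the labels say in the long-term experiment. It lay between 1.86 and 5.09 FPM (reads of a gene scaled to a common depth by the authors' size factors) in the 7 mice on dox and between 16.1 and 20.3 FPM in 12w-res. In the short-term experiment the mean level of GFP fell from 1247 FPM on dox to 606 FPM at 1d-dox, 122 FPM at 3d-dox and 11.7 FPM at 5d-dox, whereas Rb1 had means of 4.19 and 5.12 FPM at 16w+dox and 5d-dox (limma adjusted p = 0.53). Pomc, the hormone precursor gene of melanotrophs and corticotrophs, held between 13.6% and 32.2% of reads at 6w+dox, between 12.9% and 23.0% at 12w+dox and between 39.1% and 43.2% in 12w-res. In such bulk samples, fewer cells of a type and less RNA per cell cannot be told apart. Values are not comparable between the experiments, which differ in library type and in scaling.

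The sequence that p53 reads was looked for in the promoters of the members first. Of the 33 members, 26 had RefSeq promoters (GRCm38.p6, the build of the files), with 34 windows of 300 bases, from 250 before to 50 after a start site. A match to the p53 decamer, the 10-base unit that p53 binds in paired copies, stood in 11 of the 34 windows, or 32.4%, and in 8.36% of all 32851 windows. The matches fell in 10 members. Upstream sequences are shown for Trp53 itself and for 4 members that passed a test of expression below: Mdm2, Ppm1d and Ccng1, which regulate p53, and Ckap2, the member farthest below its level at 12w+dox. Each line gives the 250 bases before the start site, 5′ to 3′ on the strand of the gene, with the p53 decamer in capitals. In Ckap2 the capitals also mark a cell cycle homology region (CHR, TTTGAA), the later of its 2 capitalised stretches.
Trp53 (chr11:69580109-69580358, plus strand): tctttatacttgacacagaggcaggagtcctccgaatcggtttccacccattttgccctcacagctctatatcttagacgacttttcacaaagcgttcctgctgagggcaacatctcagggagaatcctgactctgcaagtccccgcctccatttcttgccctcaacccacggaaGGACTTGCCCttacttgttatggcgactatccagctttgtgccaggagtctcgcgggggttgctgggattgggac
Mdm2 (chr10:117710759-117711008, minus strand): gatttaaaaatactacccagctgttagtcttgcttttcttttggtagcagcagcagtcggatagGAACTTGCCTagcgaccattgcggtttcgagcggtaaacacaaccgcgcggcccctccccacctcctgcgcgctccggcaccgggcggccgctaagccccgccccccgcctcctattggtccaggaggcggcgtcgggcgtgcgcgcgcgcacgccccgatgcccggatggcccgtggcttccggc
Ppm1d (chr11:85311004-85311253, plus strand): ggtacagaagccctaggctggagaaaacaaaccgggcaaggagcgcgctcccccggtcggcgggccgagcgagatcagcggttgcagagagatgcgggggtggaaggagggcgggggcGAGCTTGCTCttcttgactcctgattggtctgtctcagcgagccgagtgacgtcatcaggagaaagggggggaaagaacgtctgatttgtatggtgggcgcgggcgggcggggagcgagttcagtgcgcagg
Ccng1 (chr11:40755287-40755536, minus strand): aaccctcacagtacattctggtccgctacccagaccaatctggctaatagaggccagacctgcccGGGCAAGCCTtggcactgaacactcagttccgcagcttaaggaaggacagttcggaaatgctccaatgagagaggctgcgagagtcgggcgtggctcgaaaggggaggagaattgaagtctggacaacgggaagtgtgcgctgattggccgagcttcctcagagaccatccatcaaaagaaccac
Ckap2 (chr8:22185820-22186069, minus strand): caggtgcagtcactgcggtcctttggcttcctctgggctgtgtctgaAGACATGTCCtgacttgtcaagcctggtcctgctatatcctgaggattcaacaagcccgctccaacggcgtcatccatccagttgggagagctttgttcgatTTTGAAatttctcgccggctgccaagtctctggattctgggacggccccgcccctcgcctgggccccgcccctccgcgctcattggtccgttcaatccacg
The decamer of Trp53 began 75 bases before the start site, that of Ppm1d 132, that of Ccng1 185, that of Mdm2 186 and that of Ckap2 203 bases before it. None of these 5 lay in an annotated exon or intron (GENCODE vM21), and all are upstream of their gene.

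The other 5 members with a decamer had it within the annotated gene and are shown with 30 bases each, again with the decamer in capitals.
Gtse1 (chr15:85859945-85859974, plus strand): gagcaagttgGGGCTTGCCTctgacttgcc
Aen (chr7:78895927-78895956, plus strand): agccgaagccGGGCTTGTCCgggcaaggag
Sesn1 (chr10:41887256-41887285, plus strand): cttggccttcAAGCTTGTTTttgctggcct
Ei24 (chr9:36797325-36797354, minus strand): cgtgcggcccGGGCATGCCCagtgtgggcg
Polk (chr13:96519399-96519428, minus strand): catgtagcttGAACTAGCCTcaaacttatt
The sites of Gtse1 (9 bases past a start site), Aen and Ei24 lay in exons annotated as untranslated, and those of Sesn1 and Polk within the gene outside its exons. The Aen site stood in the windows of both of its start sites. The p53 decamer was searched on both strands by its standard consensus. A CHR (TTTGAA or TTCGAA, both strands) stood in 5 windows, or 14.7%, against 19.2% of all windows, in Aen, Ckap2, Ercc5, Fas and Gdf15. An E2F core (TTTGGCGC, TTTCCCGC, TTTCGCGC or TTTGCCGC) stood in 0 of 34 against 2.26%, a CCAAT box (CCAAT) in 47.1% against 37.4% and an SP1 box (GGGCGG) in 61.8% against 35.7%. The decamer and CHR matches of a member do not overlap each other. These are matches of letters in fixed windows, not measured binding.

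Across the long-term groups, the p53 genes did not move as a block. Between 12w+dox and 12w-res, 17 of the 33 members passed the test (limma on log2(FPM + 0.5), Benjamini-Hochberg adjusted p under 0.05 over all genes), 6 higher and 11 lower in 12w-res. Of all genes 37.8% passed, 19.4% higher and 18.3% lower. Of the 17, 4 higher and 6 lower members also changed by more than 1 on the log2 scale, the minimum used in the study. Of all genes 11.3% did so, 6.24% higher and 5.04% lower. The median log2 fold change of the members was -0.20, and that of all genes was -0.004. When libraries were scaled by their totals of reads instead of the size factors, the median of all genes moved to -0.61 and the split became 2 higher and 21 lower, where 65.1% of all genes passed, so the numbers of members on either side depend on that scale. The 2 that stayed higher were Ccng1 and Cav1.

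Between 6w+dox and 12w+dox only 4 of 33 members passed, 2 higher and 2 lower at 12w+dox, where 22.4% of all genes passed, 10.4% higher and 12% lower. Of these members 1 in each direction changed by more than 1 on the log2 scale, as 7.2% of all genes did, 3.15% higher and 4.04% lower. The members' median was 0.10 and that of all genes -0.01. Without 6w+dox replicate 3, 8 members were higher and 2 lower, where 33.2% of all genes passed. With totals of reads 6 were higher and 1 lower, where 29.2% passed. Between 6w+dox and 12w-res, 4 members were higher and 7 lower in 12w-res, where 33.8% of all genes passed, 17% higher and 16.8% lower. Of these, 3 higher and 5 lower members changed by more than 1, as 11.6% of all genes did, 5.81% higher and 5.82% lower. The split was 3 higher and 11 lower with totals of reads, where 40.0% of all genes passed. The 3 comparisons share groups, so they are not independent of each other.

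**Figure D1:**
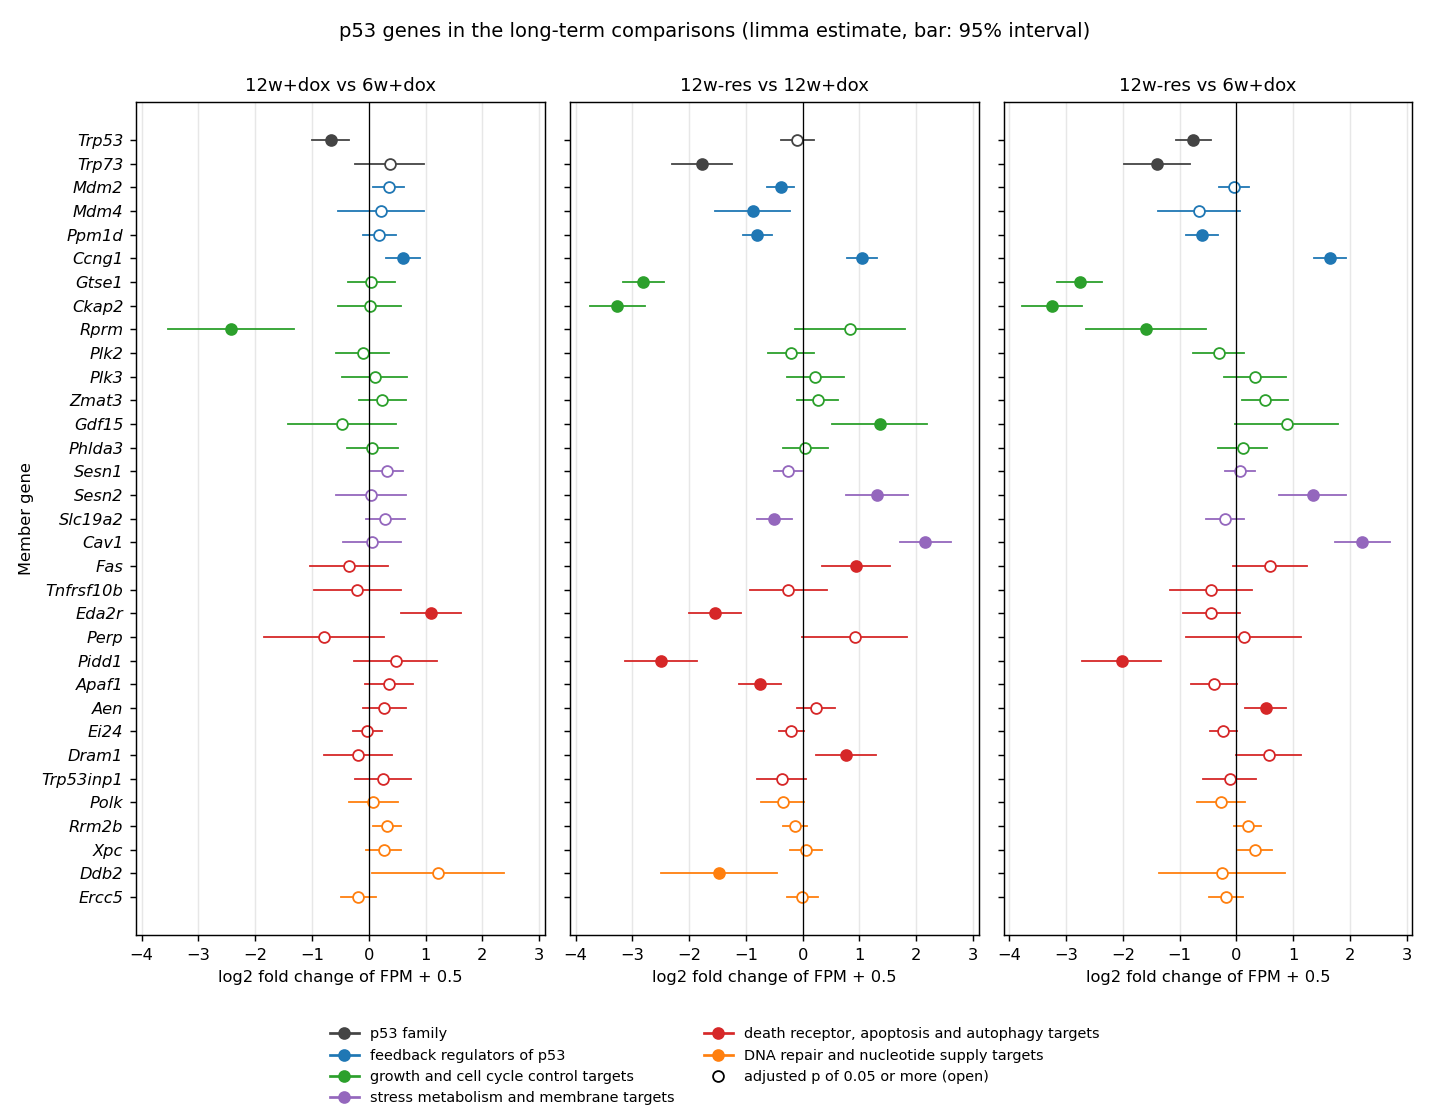
Log2 fold change of each member (x axis, log2 of FPM + 0.5; y axis, genes grouped by role and coloured by group) in the 3 long-term comparisons. Filled points passed the limma test, open points did not, and bars are 95% intervals. Gtse1 and Ckap2 lie farthest to the left for 12w-res against 12w+dox, at -2.81 and -3.26, and Cav1 farthest to the right at 2.16.

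Trp53 transcript was highest after 6 weeks of dox. It was 69.9, 75.7 and 60.9 FPM in the 3 mice at 6w+dox, 45.1, 38.9, 44.1 and 43.7 FPM at 12w+dox, and 51.0, 33.8, 47.8, 35.9 and 35.6 FPM in 12w-res. Every mouse at 6w+dox was above every other mouse of the experiment. Trp53 fell by 0.67 on the log2 scale from 6w+dox to 12w+dox (SE 0.15, adjusted p = 0.0076), and was 0.76 lower in 12w-res than at 6w+dox (log2 fold change -0.76, SE 0.14, adjusted p = 0.0012). Between 12w+dox and 12w-res the log2 fold change was -0.09, with a 95% interval from -0.38 to 0.19 (adjusted p = 0.62). The exact two-sided permutation test of mean FPM gave p = 0.0571 for 12w+dox against 6w+dox, p = 0.0357 for 12w-res against 6w+dox and p = 0.62 for 12w-res against 12w+dox. The first 2 of these are the smallest p-values that their numbers of mice allow. The scale matters here: with totals of reads the fall from 6w+dox to 12w+dox was 0.35 (log2 fold change -0.35, adjusted p = 0.14), and 12w-res was lower than 12w+dox (-0.74, adjusted p = 0.00078). On that scale the medians of all genes in these comparisons were 0.29 and -0.61. Marker lists of other cells also changed between 6w+dox and 12w+dox. Lower at 12w+dox were 5 of 7 markers of other anterior pituitary cells, 4 of 7 of neural lobe and stem cells, 4 of 8 endothelial and 3 of 7 fibroblast markers. In 12w-res, where Trp53 was as low, the summed anterior pituitary markers lay between 17309 and 34952 FPM, below the 58648 to 94098 FPM of 6w+dox. The summed neural lobe and stem cell markers were also below those of 6w+dox (74.2 to 91.9 FPM against 115 to 190 FPM). The summed endothelial markers lay above those of 6w+dox (154 to 175 FPM against 99.5 to 128 FPM), as did the fibroblast markers (413 to 822 FPM against 269 to 297 FPM). The part of these cells was not tested.

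Trp73, which encodes the related factor p73 and is itself an E2F target, took another course. It read 1.63, 3.74 and 3.06 FPM at 6w+dox and 2.76, 4.40, 3.54 and 3.88 FPM at 12w+dox. In 12w-res it read 0.624, 1.37, 0.546, 0.472 and 0.663 FPM, below every mouse on dox, on 8 to 26 reads a library. Trp73 was lower in 12w-res than at 12w+dox (log2 fold change -1.77, SE 0.25, adjusted p = 0.0001).

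The feedback regulators of p53 split. Mdm2 encodes the ubiquitin ligase of p53, Mdm4 a related protein that blocks its activation domain, and Ppm1d the phosphatase WIP1, which reverses the stress signals on p53 and its kinases. Ccng1 encodes cyclin G1, which directs a phosphatase to MDM2. All 4 passed the test between 12w+dox and 12w-res, with 3 lower and 1 higher. Mdm2 was 48.1, 49.9, 55.1 and 49.0 FPM at 12w+dox and 35.9, 40.9, 35.6, 40.2 and 39.6 FPM in 12w-res, with no overlap. The difference was small, with a log2 fold change of -0.39 (SE 0.11, adjusted p = 0.015). In females only it did not pass (-0.35, adjusted p = 0.20). At 6w+dox Mdm2 ranged from 32.6 to 48.3 FPM and overlapped 12w-res.

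Ppm1d lay at 36.6, 41.0, 35.3 and 39.5 FPM at 12w+dox and at 24.0, 19.5, 23.5, 22.1 and 19.8 FPM in 12w-res, all 5 mice below the lowest mouse on dox of either age, 27.2 FPM. Relative to 12w+dox the log2 fold change was -0.80 (SE 0.12, adjusted p = 0.00017). Mdm4 was 61.4, 53.3, 72.4 and 79.8 FPM at 12w+dox and 25.7, 39.7, 39.7, 31.4 and 44.5 FPM in 12w-res (log2 fold change -0.88, SE 0.31, adjusted p = 0.038). The Mdm4 groups did not overlap, but the call was lost when any of 6 of the 9 libraries was left out (12w+dox replicates 1, 3 and 4, 12w-res replicates 1, 3 and 4, adjusted p from 0.0538 to 0.102). At 6w+dox, Mdm4 spread from 29.3 and 48.1 FPM to 128 FPM in replicate 3.

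Ccng1 was lowest at 6w+dox and highest in 12w-res. It read 90.5, 89.3 and 72.2 FPM at 6w+dox, 118, 134, 136 and 121 FPM at 12w+dox, and 202, 271, 286, 304 and 262 FPM in 12w-res. The 3 groups did not overlap. Ccng1 was 0.60 higher at 12w+dox than at 6w+dox (log2, SE 0.14, adjusted p = 0.0087) and 1.04 higher in 12w-res than at 12w+dox (SE 0.12, adjusted p = 2.2e-05). With totals of reads the latter difference was 0.39 (adjusted p = 0.011). The summed level of the 4 regulators, carried mostly by Ccng1, was 265 to 299 FPM at 12w+dox and 288 to 398 FPM in 12w-res.

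**Figure D2:**
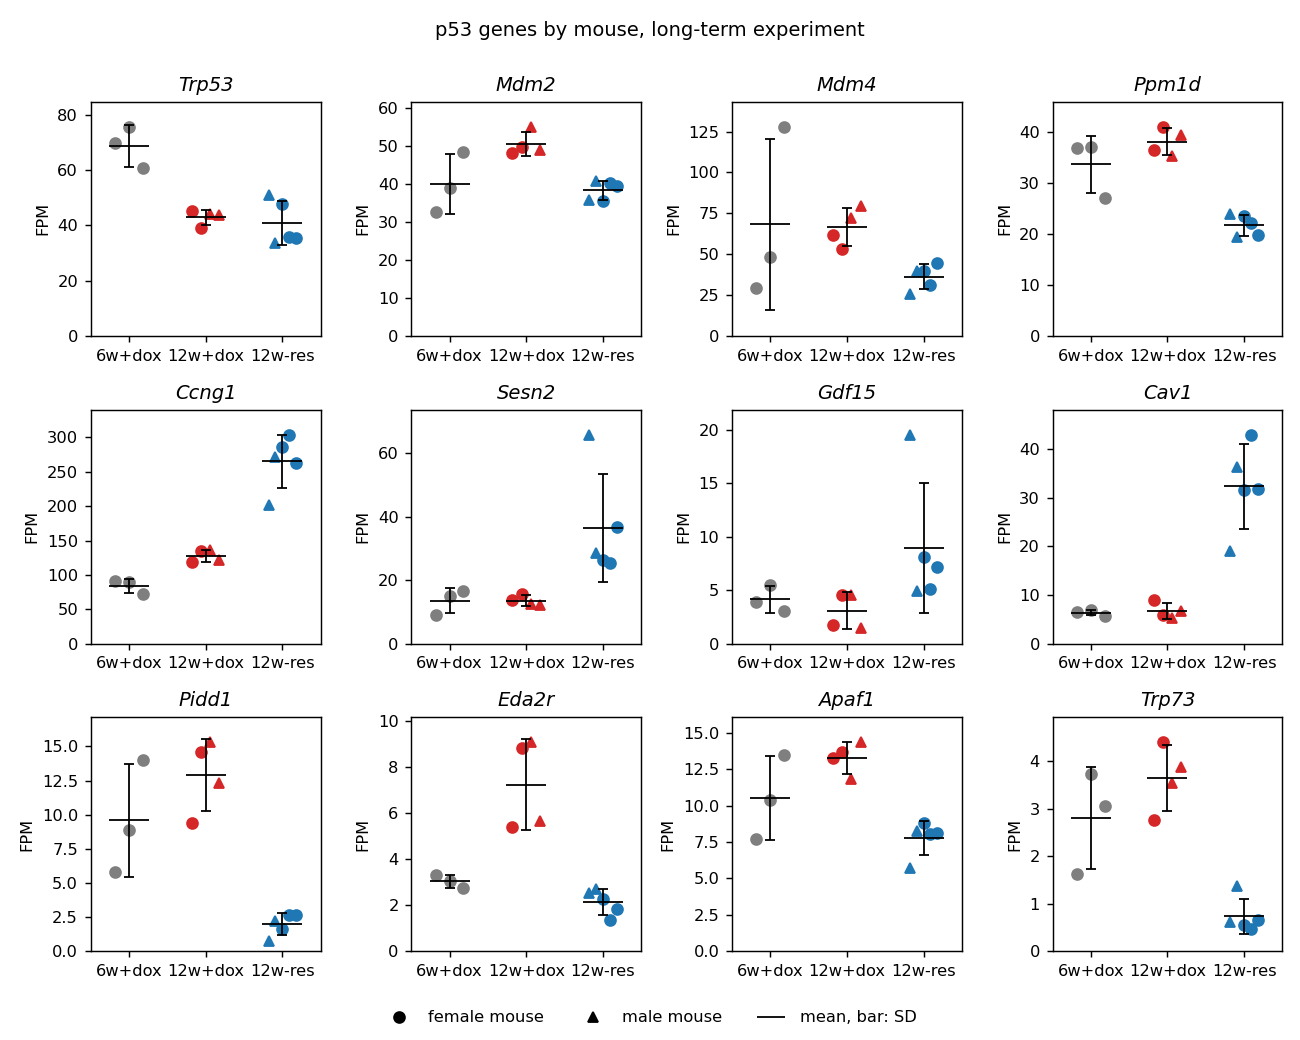
FPM (y axis, each panel from 0) of 12 members in each mouse of the long-term groups (x axis), with circles for females and triangles for males. Horizontal lines are means and bars are SD. Trp53 lies above 60 FPM only at 6w+dox, Ccng1 does not overlap between the 3 groups, and in 12w-res Ppm1d, Pidd1 and Trp73 lie below every mouse on dox.

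Among the 8 growth and cell cycle targets, the largest changes were those of Gtse1 and Ckap2. Gtse1 encodes a microtubule-binding protein of G2 and mitosis that carries p53 out of the nucleus, and Ckap2 a spindle protein. Gtse1 lay at 10.5, 9.62 and 8.28 FPM at 6w+dox and 7.15, 11.4, 10.4 and 10.5 FPM at 12w+dox, and at 0.884, 0.898, 1.05, 0.945 and 1.05 FPM in 12w-res. Ckap2 lay at 25.8, 20.2 and 15.8 FPM at 6w+dox, at 16.9, 24.3, 21.3 and 19.8 FPM at 12w+dox, and at 1.46, 1.58, 2.46, 0.886 and 2.43 FPM in 12w-res. No mouse of 12w-res came near the mice on dox, whose groups overlapped each other. Relative to 12w+dox, Gtse1 had a log2 fold change of -2.81 (SE 0.17, adjusted p = 3.6e-08) and Ckap2 one of -3.26 (SE 0.23, adjusted p = 1.4e-07).

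The 14 proliferation markers (among them Mki67, Top2a and Ccnb1) moved with Gtse1 and Ckap2, and all 14 were lower in 12w-res, with a median log2 fold change of -3.28. Their summed level was 531 to 727 FPM at 12w+dox, 588 to 859 FPM at 6w+dox and 68.3 to 80.0 FPM in 12w-res. Their part in the falls of Gtse1, Ckap2 and Trp73 was not tested.

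Gdf15, a secreted stress cytokine, was 1.78, 4.58, 4.53 and 1.42 FPM at 12w+dox and 19.6, 4.97, 8.15, 5.08 and 7.13 FPM in 12w-res (log2 fold change 1.36, SE 0.39, adjusted p = 0.014). The highest value is replicate 1, and the call was lost without 12w+dox replicate 4 (adjusted p = 0.054) or with totals of reads (log2 fold change 0.78, adjusted p = 0.094). Rprm encodes reprimo, which holds cells in G2. It was 12.0, 20.7 and 15.5 FPM at 6w+dox and 6.39, 1.52, 2.03 and 1.84 FPM at 12w+dox, a fall of 2.43 (log2 fold change -2.43, SE 0.52, adjusted p = 0.0059). In 12w-res Rprm spread from 2.43 to 15.3 FPM, and compared with 12w+dox its log2 fold change was 0.84 (adjusted p = 0.16). Against 6w+dox it was -1.59 (adjusted p = 0.024), with adjusted p from 0.0546 to 0.0982 without 12w-res replicate 3 or 5 or 6w+dox replicate 2. The fall of Rprm at 12w+dox went with falls of 5 of 7 markers of other anterior pituitary cells, whose summed level lay between 58648 and 94098 FPM at 6w+dox and between 1215 and 13031 FPM at 12w+dox. The part of those cells was not tested.

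The other 4 growth targets did not pass any long-term test in the fit of all long-term groups with the size factors. Plk2 and Plk3 encode stress kinases, Zmat3 an RNA-binding protein and Phlda3 an inhibitor of AKT. Between 12w+dox and 12w-res their log2 fold changes were -0.21, 0.22, 0.26 and 0.05. With totals of reads Plk2 and Phlda3 passed as lower in 12w-res (-0.86 and -0.58, adjusted p = 0.00019 and 0.017). On that scale the median of all genes was -0.61 and 65.1% of all genes passed. Zmat3 reached an adjusted p of 0.05 for 12w-res against 6w+dox, at the threshold, with 47.4 to 58.5 FPM against 34.9 to 40.4 FPM. It passed there with only the 2 groups compared (0.50, adjusted p = 0.0066), in females only (0.53, adjusted p = 0.011) and with TMM factors, edgeR or DESeq2. Without 12w+dox replicate 4, Zmat3 was higher in 12w-res than at 12w+dox (0.47, adjusted p = 0.013). Without 6w+dox replicate 3, Plk2 was lower in 12w-res than at 6w+dox (-0.55, adjusted p = 0.046).

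The stress metabolism and membrane targets gave the largest rise. Cav1 encodes caveolin-1, the coat protein of caveolae. It was 6.40, 6.81 and 5.75 FPM at 6w+dox, 8.93, 5.95, 5.24 and 6.76 FPM at 12w+dox, and 18.9, 36.2, 31.5, 42.9 and 31.8 FPM in 12w-res. Each mouse of 12w-res was above 18 FPM and each mouse on dox below 9, and the log2 fold change from 12w+dox was 2.16 (SE 0.21, adjusted p = 3.7e-06). Transcripts that mark cell types rich in caveolae moved with it in this comparison. Of the endothelial markers 7 of 8 were higher in 12w-res than at 12w+dox, with a summed level of 154 to 175 against 50.3 to 88.9 FPM, and of the fibroblast markers 6 of 7, with 413 to 822 against 87.5 to 279 FPM. At 6w+dox, where Cav1 was as low as at 12w+dox, those sums were 99.5 to 128 FPM and 269 to 297 FPM. The part of these cells in the rise of Cav1 was not tested.

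Sesn1 and Sesn2 encode sestrins, which restrain mTORC1 under stress. In the fit of all long-term groups with the size factors, Sesn2 alone of them passed. Sesn2 was 13.9, 15.7, 12.4 and 12.2 FPM at 12w+dox and 65.9, 28.6, 26.3, 25.3 and 36.6 FPM in 12w-res, with 9.02 to 16.6 FPM at 6w+dox. The log2 fold change from 12w+dox was 1.31 (SE 0.25, adjusted p = 0.0012), and with totals of reads 0.67 (adjusted p = 0.058). Sesn1 was 47.7 to 58.9 FPM at 12w+dox and 40.1 to 46.6 FPM in 12w-res, and its log2 fold change of -0.26 had an adjusted p of 0.085. With only the 2 groups compared, Sesn1 passed as lower in 12w-res (-0.26, adjusted p = 0.036). Without 6w+dox replicate 3 it was higher at 12w+dox than at 6w+dox (0.46, adjusted p = 0.014). With totals of reads, 12w-res against 12w+dox gave -0.92 (adjusted p = 0.00033), where the median of all genes was -0.61. Slc19a2, a thiamine transporter, lay between 13.8 and 16.4 FPM at 12w+dox and between 7.79 and 12.5 FPM in 12w-res (log2 fold change -0.50, SE 0.14, adjusted p = 0.014). The Slc19a2 call was lost in females only (-0.45, adjusted p = 0.21).

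**Figure D3:**
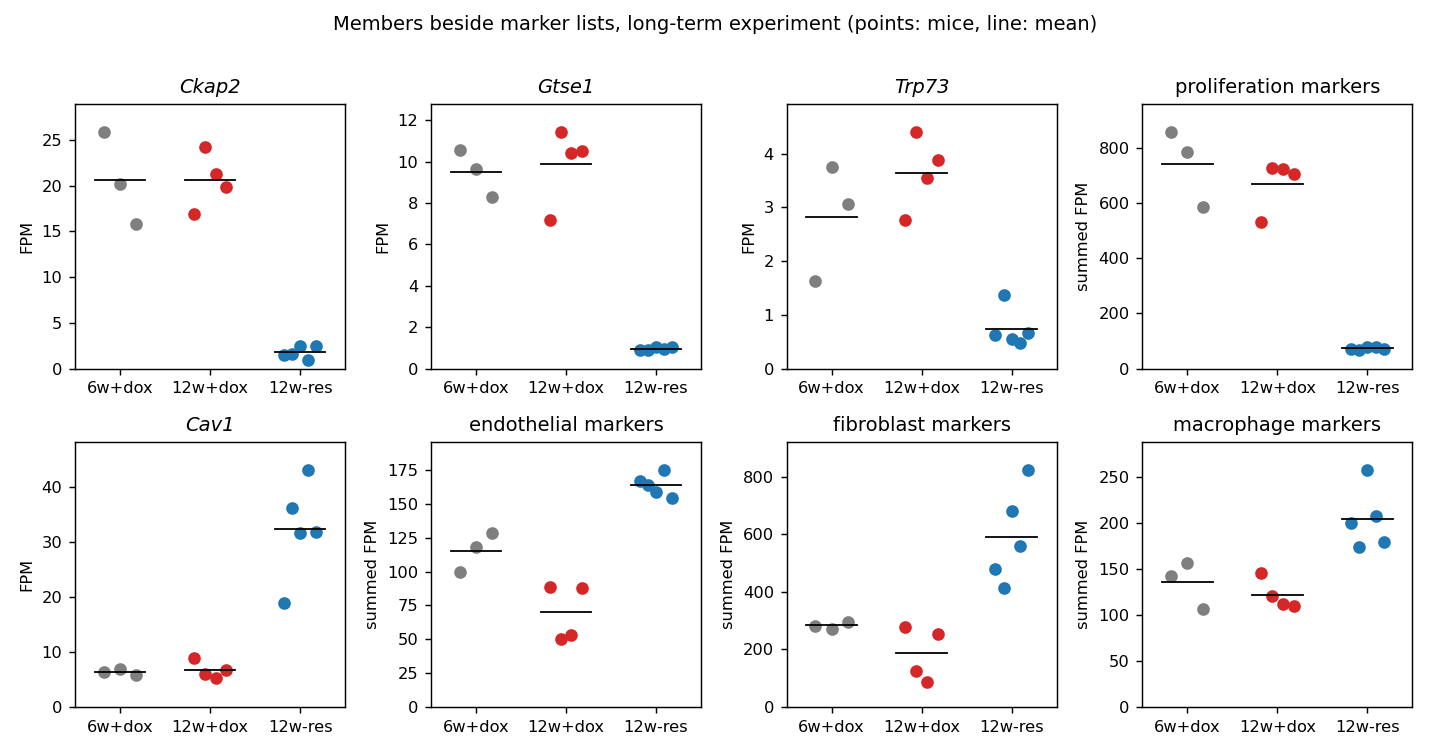
FPM of Ckap2, Gtse1, Trp73 and Cav1 and the summed FPM of 4 marker lists (y axes from 0) in each mouse of the long-term groups (x axes); lines are means. The proliferation markers drop to 68.3 to 80.0 FPM in 12w-res as Ckap2, Gtse1 and Trp73 do, and the endothelial, fibroblast and macrophage sums of 12w-res lie above those of 12w+dox, as Cav1 does.

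The 10 genes of death receptors, apoptosis and autophagy went both ways, with 2 higher and 3 lower in 12w-res than at 12w+dox. Pidd1 encodes the scaffold of the PIDDosome, which activates caspase-2. It was 5.82, 8.91 and 14.0 FPM at 6w+dox, 9.42, 14.6, 15.3 and 12.3 FPM at 12w+dox, and 0.728, 2.22, 1.64, 2.66 and 2.65 FPM in 12w-res. All 5 mice of 12w-res were below all 7 mice on dox, and the log2 fold change of Pidd1 was -2.49 (SE 0.30, adjusted p = 2.7e-05). Apaf1, the platform of the apoptosome, was 11.8 to 14.4 FPM at 12w+dox and 5.72 to 8.78 FPM in 12w-res (log2 fold change -0.75, SE 0.17, adjusted p = 0.0039). The Apaf1 call was lost in females only (-0.67, adjusted p = 0.086).

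Eda2r, the receptor for ectodysplasin A2, was the only member that passed the test as higher at 12w+dox than in both other groups, joined by Mdm2, Ppm1d, Sesn1 and Rrm2b with totals of reads, and by Mdm2, Mdm4, Ddb2 and Apaf1 when 6w+dox replicate 3 was left out. It was 3.32, 3.07 and 2.73 FPM at 6w+dox, 5.41, 8.83, 9.09 and 5.67 FPM at 12w+dox, and 2.55, 2.69, 2.28, 1.36 and 1.82 FPM in 12w-res. It was 1.10 higher at 12w+dox than at 6w+dox (log2, SE 0.25, adjusted p = 0.0074), a call lost in females only (1.07, adjusted p = 0.058), and it was lower in 12w-res than at 12w+dox (log2 fold change -1.54, SE 0.22, adjusted p = 9.5e-05). Between 6w+dox and 12w-res it did not pass (adjusted p = 0.16).

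The death receptor Fas and the lysosomal autophagy gene Dram1 were higher in 12w-res on few reads. Fas was 1.05, 0.729, 0.708 and 0.223 FPM at 12w+dox (8 to 30 reads) and 1.40, 1.06, 3.32, 1.36 and 1.82 FPM in 12w-res (20 to 73 reads), a log2 fold change of 0.94 (adjusted p = 0.017). Dram1 was 0.949 to 1.22 FPM at 12w+dox and 1.48 to 3.01 FPM in 12w-res (log2 fold change 0.77, adjusted p = 0.024). The Fas call was lost without 12w+dox replicate 4 (adjusted p = 0.0658), and that of Dram1 without any of 4 libraries (12w+dox replicates 2 and 4, 12w-res replicates 1 and 4, adjusted p from 0.0543 to 0.0652). With totals of reads neither passed (log2 fold changes 0.52 and 0.27, adjusted p = 0.13 and 0.4). Both genes are also expressed by immune cells. In 12w-res 9 of 10 macrophage markers were higher, with a summed level of 174 to 257 FPM against 110 to 146 FPM at 12w+dox. Of 7 T cell markers 4 were present. Their sums overlapped, at 0.827 to 2.38 FPM in 12w-res and 0.758 to 1.95 FPM at 12w+dox. The part of immune cells was not tested.

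The other 5 did not pass between 12w+dox and 12w-res. They were Tnfrsf10b, the TRAIL receptor, Perp, a desmosomal and apoptotic membrane protein, the nuclease gene Aen, the autophagy-linked Ei24, and Trp53inp1, a cofactor that promotes p53 activity. With totals of reads, Ei24 and Trp53inp1 passed as lower in 12w-res (-0.86 and -1.02, adjusted p = 1.5e-05 and 0.0015). On that scale the median of all genes was -0.61 and 65.1% of all genes passed. Perp was 24.3, 3.18, 3.70 and 4.75 FPM at 12w+dox. Without the high replicate 1, Perp was higher in 12w-res (7.71 to 16.7 FPM, log2 fold change 1.55, adjusted p = 0.00014) and lower at 12w+dox than at 6w+dox (9.72 to 12.3 FPM, log2 fold change -1.42, adjusted p = 0.0019). Leaving out that mouse also made Rprm higher in 12w-res (1.23, adjusted p = 0.038). Aen passed for 12w-res against 6w+dox alone, at 14.0 to 18.6 against 11.1 to 12.2 FPM (log2 fold change 0.52, adjusted p = 0.03), and lost the call without any of 5 of the 8 libraries (12w-res replicates 2, 4 and 5, 6w+dox replicates 1 and 2, adjusted p from 0.0576 to 0.0825).

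Of the 5 genes for DNA repair and nucleotide supply, Ddb2 alone passed between 12w+dox and 12w-res with the size factors. Ddb2 and Xpc encode sensors of ultraviolet damage, Ercc5 the nuclease of the same repair pathway, Polk a translesion polymerase and Rrm2b the p53-induced subunit of ribonucleotide reductase. Ddb2 was 4.89, 5.74, 12.7 and 6.42 FPM at 12w+dox and 0.988, 3.96, 2.32, 2.18 and 2.27 FPM in 12w-res (log2 fold change -1.47, SE 0.47, adjusted p = 0.025). The call was lost without 12w+dox replicate 3 (adjusted p = 0.0859) or 12w-res replicate 1 (adjusted p = 0.0574). Ddb2 overlaps Acp2 by 2554 bases, and reads from the shared stretch may be divided between them. At 6w+dox it was 0.990, 1.69 and 9.56 FPM, and without the high replicate 3 it was higher at 12w+dox (log2 fold change 2.04, adjusted p = 0.0023). Xpc, Ercc5, Polk and Rrm2b had log2 fold changes of 0.06, -0.01, -0.35 and -0.13 between 12w+dox and 12w-res. With totals of reads all 4 passed as lower in 12w-res, at -0.58, -0.66, -0.98 and -0.78. On that scale the median of all genes was -0.61 and 65.1% of all genes passed.

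In all, 18 of the 33 members had no overlap between the mice of 12w+dox and 12w-res, where 34.5% of all genes had none. With each of the 9 libraries left out in turn, 12 of the 17 members kept their call. The effect of withdrawal was compared between females and males with an interaction term. It passed for 13 of 15108 genes and for 0 members, with 3 members (Polk, Rprm and Tnfrsf10b) at an unadjusted p under 0.05 by limma and 3 by edgeR, where 4.24% and 4.47% of all genes had one.

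Other known p53 targets, from a list of 23 of which 22 were tested, were also divided between 12w+dox and 12w-res. Of these 22, 7 were higher and 4 lower, where 19.4% of all genes passed as higher and 18.3% as lower. The median log2 fold change of the 22 was 0.10. Cdkn1a, which encodes the cell cycle inhibitor p21, was lower in 12w-res (log2 fold change -1.24, adjusted p = 8.1e-05), and Psrc1, a spindle gene, had a log2 fold change of -3.60 (adjusted p = 5.6e-08). Sfn (14-3-3 sigma), the matrix protein gene Thbs1 and the receptor gene Epha2 were higher, with log2 fold changes of 1.91, 2.09 and 1.49. The apoptosis genes Bax, Bbc3 and Pmaip1 did not pass, at -0.41, -0.04 and 0.36, and neither did Btg2 at -0.84 (adjusted p = 0.063). Between 6w+dox and 12w+dox 2 of the 22 were higher and 2 lower, where 22.4% of all genes passed. Between 6w+dox and 12w-res 5 were higher and 5 lower, where 33.8% of all genes passed.

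A list of 18 genes that act on p53 held activators and cofactors, and also genes that restrain it, such as Sirt1, Cop1 and Rchy1. Of these 18, 1 was higher and 3 were lower in 12w-res than at 12w+dox, where 37.8% of all genes passed. The lower ones were the checkpoint kinase gene Chek1 (log2 fold change -2.56, adjusted p = 3.8e-08), Cdkn2a (-1.47, adjusted p = 6.9e-05) and Sirt1 (-0.72, adjusted p = 0.0012). Cdkn2a is the locus of the MDM2 inhibitor ARF and also of p16, and values per gene do not separate them. Sirt1 encodes a deacetylase that restrains p53. Rpl5, whose protein binds MDM2, was higher (0.61, adjusted p = 0.029). Sirt1 and Rpl5, which changed by less than 1, were named after their values were seen. Of the 18, Hipk2, a kinase of p53, alone passed between 6w+dox and 12w+dox, where 22.4% of all genes passed. It was higher at 12w+dox by 1.29 (adjusted p = 0.011). Between 6w+dox and 12w-res, 2 of the 18 were higher and 4 lower, where 33.8% of all genes passed.

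The p53 genes did not change detectably in the first 5 days after dox was removed. None of the 32 members passed for 1d-dox, 3d-dox or 5d-dox against 16w+dox or for 5d-dox against 1d-dox by limma, nor by edgeR or DESeq2 on the reads. Of all genes 0.1%, 0.358%, 0.509% and 0.0143% passed in these comparisons by limma, and 2.22%, 2.85%, 2.34% and 0.143% by DESeq2. That none of 32 members passed is therefore close to the share of all genes. At an unadjusted p under 0.05 there were 6, 7, 6 and 2 members, where 13.1%, 16.6%, 13.5% and 6.33% of all genes had one. The groups differed in sex except for 3d-dox against 16w+dox, both male, and 5d-dox against 1d-dox, both female, so sex and time off dox cannot be told apart in the other comparisons.

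Trp53 was 7.41, 6.95 and 5.87 FPM at 16w+dox, 6.57, 5.83, 8.55 and 7.13 FPM at 1d-dox, 6.47, 6.38 and 6.90 FPM at 3d-dox, and 6.36, 6.52 and 5.71 FPM at 5d-dox. The groups overlapped. Against 16w+dox its log2 fold change was 0.05 at 1d-dox (95% interval -0.21 to 0.31), -0.03 at 3d-dox (-0.30 to 0.25) and -0.11 at 5d-dox (-0.38 to 0.17), so changes beyond those bounds were not seen. Exact two-sided permutation tests gave p = 0.8, 0.8 and 0.4. With 3 mice against 3 the smallest possible p is 0.1.

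Members with large long-term changes gave intervals that leave out changes of that size for 5d-dox against 16w+dox. These groups also differ in sex, so the intervals do not bound the effect of dox removal alone. Gtse1 was 3.77, 2.57 and 3.70 FPM at 16w+dox and 2.92, 3.82 and 4.59 FPM at 5d-dox (log2 fold change 0.15, 95% interval -0.37 to 0.67). Ckap2 was 9.61, 4.28 and 8.47 FPM at 16w+dox and 6.48, 7.40 and 7.40 FPM at 5d-dox (0.00, interval -0.51 to 0.51). At 3d-dox, where the sexes match, Gtse1 was 2.11, 2.24 and 2.84 FPM and Ckap2 was 6.02, 5.89 and 8.83 FPM. The summed level of the proliferation markers lay between 229 and 342 FPM at 16w+dox, between 280 and 446 FPM at 3d-dox and between 283 and 336 FPM at 5d-dox. Between 16w+dox and 5d-dox, Pidd1 had a log2 fold change of 0.41 (0.04 to 0.79) and Ppm1d of -0.19 (-0.44 to 0.05).

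Ccng1 and Mdm2 were the 2 members with an unadjusted p under 0.05 for 5d-dox against 1d-dox, both groups female. Ccng1 was 47.4, 47.8, 45.8 and 37.0 FPM at 1d-dox and 53.3, 57.5 and 66.8 FPM at 5d-dox, with no overlap (log2 fold change 0.41, interval 0.12 to 0.70, adjusted p = 0.65). It was the only member without overlap between these groups, where 7.8% of all genes had none. Ccng1 was 37.0, 35.1 and 33.5 FPM at 3d-dox, in males, lower than in most mice at 16w+dox (52.8, 34.8 and 53.9 FPM). Mdm2 was 20.7 to 24.2 FPM at 1d-dox and 18.6 to 21.4 FPM at 5d-dox (-0.19, adjusted p = 0.72). Cav1 was lower than on dox at each time, with log2 fold changes of -0.77, -0.42 and -0.53 that did not pass (adjusted p = 0.22, 0.47 and 0.42). The summed endothelial markers lay between 18.4 and 34.6 FPM at 16w+dox, between 10.6 and 13.9 FPM at 1d-dox and between 7.77 and 11.8 FPM at 5d-dox. At 3d-dox, where the sexes match, they lay between 19.0 and 32.6 FPM, which overlaps 16w+dox. Their part was not tested. Fas, Dram1, Gdf15 and Rprm had at most 16, 20, 43 and 72 reads in any short-term library, and Fas as few as 0, so changes in them were not measurable with precision at this depth.

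**Figure D4:**
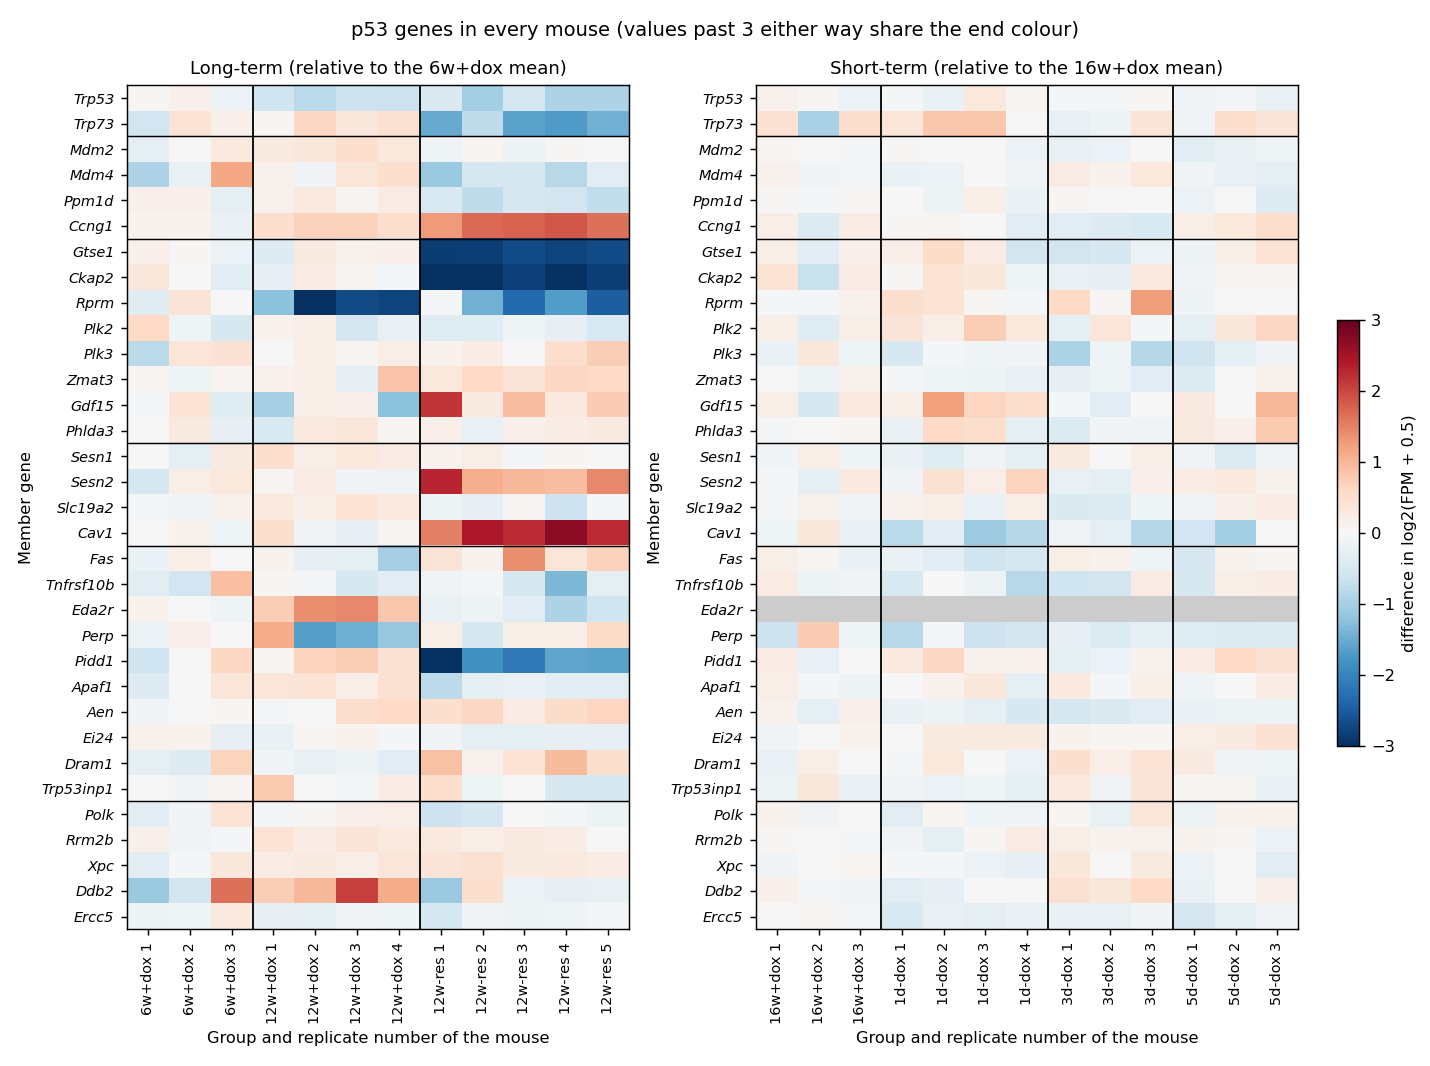
Difference in log2(FPM + 0.5) of each member (rows, divided by role) in each mouse (columns, group and replicate number) from the mean of 6w+dox (left) or 16w+dox (right). Red is higher, blue lower, and grey marks Eda2r, not in the short-term table. The left panel shows the blocks of Gtse1, Ckap2 and Pidd1 (blue) and of Ccng1, Sesn2 and Cav1 (red) in 12w-res, and the right panel no such block.

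The members also differed in how much they varied among mice of a group. The median coefficient of variation of the members was between 13.9% and 19.8% in the 7 groups. Perp at 12w+dox and Ddb2 at 6w+dox varied the most, at 114% and 117%, each through a single mouse. Rprm varied by 87.2% in 12w-res and 78.3% at 12w+dox, and Mdm4 by 76.4% at 6w+dox. Replicate 3 of 6w+dox held the highest value of its group for 17 of the 33 members and the lowest for 11, and it had the smallest share of Pomc reads in that group, 13.6%. In the short-term table, 5d-dox replicate 3 held the highest value of its group for 18 of 32 members and 3d-dox replicate 3 for 17. The lowest value was held by 5d-dox replicate 1 for 19 and by 3d-dox replicate 2 for 16. The same counts over all genes were not taken. Aen at 5d-dox varied the least, by 1.69%.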

How the data were processed

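RNA-seq of 25 mice was analysed from 2 tables, 12 long-term and 13 short-term samples. Per the labels and methods, the authors aligned reads to mm10 and deposited a signal per gene, DESeq2 FPM, which is the count of reads scaled by size factors. All 183780 and 182143 values were whole reads within 0.1 read once each library's step was known, which gave the reads back. In the short-term table, 4 lines without a gene name, with 68.8% to 75.0% of its reads, were left out. Samples were grouped by the labels. Mice of a group are separate samples, and p-values measure the spread between them.

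Genes with at least 10 reads in over 50% of the samples of a group were tested (15315 and 13958) with limma 3.58.1 (R 4.3.3) on log2(FPM + 0.5), all groups of a table in 1 fit, with Benjamini-Hochberg adjustment over all genes. A gene passed at an adjusted p under 0.05, and fold changes are on the log2(FPM + 0.5) scale. Because of the added 0.5, these fold changes understate changes of low genes. The depth per library, from 9573101 to 28968476 reads, limits precision for genes with few reads. Alternatives were other pseudocounts, filters and scalings, edgeR 4.0.16 and DESeq2 1.42.0 on the recovered reads, sex, a replicate block and leaving out each mouse. Replicate numbers did not pair the samples. Scripts were tested on simulated counts. Promoter windows are from RefSeq, and decamer positions were annotated from GENCODE vM21. The named genes are all 33 members in order of role, from the lists of other p53 targets and of activators those that passed with a log2 change over 1 for 12w+dox against 6w+dox or 12w-res against 12w+dox, and Cdkn1a, Bax, Bbc3, Pmaip1 and Btg2. Marker lists are given by counts. A result that this rule would name is not reported here. Members, lists and tests were chosen with earlier results of these data known.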

Additional observations from a re-analysis of the deposited data

Results flagged for a closer look

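The values of each member in each group of 4 or 5 mice were examined, 98 sets in all. In 11 of them, an end mouse was set off from the others by more than Dixon's 95% critical value. The sets share mice and so are not independent, and no rate over all genes was taken. Of the 11, 6 came from 12w-res replicate 1. In that mouse Sesn2 was 65.9 FPM (others 25.3 to 36.6), Gdf15 19.6 FPM (4.97 to 8.15), Rprm 15.3 FPM (2.43 to 5.44) and Ei24 81.9 FPM (70.3 to 73.3), all high, and Apaf1 was 5.72 FPM (8.03 to 8.78) and Ercc5 22.1 FPM (28.5 to 31.1), both low. In 12w-res replicate 2, Phlda3 was low at 8.93 FPM (11.7 to 12.9) and Trp73 high at 1.37 FPM (0.472 to 0.663).

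At 12w+dox, replicate 1 had Perp at 24.3 FPM (others 3.18 to 4.75) and Rprm at 6.39 FPM (1.52 to 2.03). At 1d-dox, Ei24 was low in replicate 1, at 17.8 FPM (21.3 in each of the others). Without 12w-res replicate 1, Sesn2, Gdf15 and Apaf1 still passed the test against 12w+dox. The sources of these differences between mice were not tested.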

How the results depend on the processing

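With other pseudocounts, no filter, TMM factors, edgeR, sex as a covariate or only the 2 groups compared, the counts of members that passed stayed within 1.5 times those reported. With totals of recovered reads, the members that passed were 6 higher and 1 lower for 12w+dox against 6w+dox, 2 higher and 21 lower for 12w-res against 12w+dox, and 3 higher and 11 lower for 12w-res against 6w+dox. That scaling moved the median of all genes by 0.29, -0.61 and -0.33. It also made mean Trp53 lower in 12w-res than at 12w+dox by 22.1 FPM (difference -22.1, exact permutation p = 0.0159) and turned the difference for 3d-dox against 16w+dox from -0.159 to 0.579 FPM. In females only, 1 member was higher at 12w+dox than at 6w+dox, and 3 were higher and 6 lower in 12w-res than at 12w+dox, with fewer samples (6.67% and 16.0% of all genes passed). Between 12w+dox and 12w-res, females only lost the calls of Mdm2, Mdm4, Fas, Ddb2, Gdf15, Apaf1, Dram1 and Slc19a2 (adjusted p from 0.0852 to 0.444). In all mice, with a log2 change over 1 required, the counts were 1 higher and 1 lower at 12w+dox than at 6w+dox, and 4 higher and 6 lower in 12w-res than at 12w+dox.

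Leaving out each mouse gave 2 to 8 higher and 2 to 3 lower members for 12w+dox against 6w+dox, 4 to 8 higher and 9 to 11 lower for 12w-res against 12w+dox, and 3 to 6 higher and 6 to 9 lower for 12w-res against 6w+dox. The 8 higher came without 6w+dox replicate 3 (Mdm2, Mdm4, Sesn1, Xpc, Ddb2 and Apaf1 beside Ccng1 and Eda2r). No member that passed changed direction in any alternative. Of the 381 values of passing members under alternatives other than leaving out a mouse, 22 no longer passed. Rprm for 12w-res against 6w+dox was one of them with edgeR (adjusted p = 0.0726) and DESeq2 (0.0887). Members that did not pass changed sign in 62 of 2062 such values, 2 of which passed, Phlda3 and Xpc with totals of reads. The short-term counts were 0 under every alternative run.

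With the replicate block, the counts were 2 higher and 2 lower, 5 higher and 11 lower, and 3 higher and 6 lower for the 3 long-term comparisons, and 0 for the short-term ones. Same-numbered mice correlated from -0.165 to 0.237 (10 pairs) and from -0.208 to 0.168 (18 pairs), and 1 of 12 and 3 of 13 mice correlated best with their own number, so the numbers do not pair the mice. In promoter windows of 150 bases, the p53 decamer stood in 5 of 34 member windows (3.90% of all windows) and the CHR in 3 (8.82% against 9.20% of all windows). The causes were not tested. Depth limits Fas, Dram1, Gdf15 and Rprm in the short-term table.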
